A study of Mus musculus with 4 samples.

Results

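The genes of the cytosolic ribosomal proteins were examined in bone marrow-derived macrophages (BMDMs), which are macrophages grown from mouse bone marrow cells in the presence of M-CSF. Members were chosen by gene symbol, as Rpl or Rps with a number and at most a short suffix, together with Rplp0, Rplp1, Rplp2 and Rpsa. This rule found 82 of the 16375 genes listed, 50 of the large 60S subunit and 32 of the small 40S subunit. The study compared wt mice with *lncLy6c* KO mice (LNCKO, C57BL/6J background), in which CRISPR-Cas9 deleted the locus of the long noncoding RNA lncLy6c, and asked how the macrophages of each genotype respond to butyrate, a short-chain fatty acid made by gut bacteria. The 4 groups were macrophages of either genotype cultured alone (WT control, LNCKO control) or with 500 µM butyrate for 24 h (WT butyrate, LNCKO butyrate), and each group had 1 library. Differences therefore have no replicate check, and p-values were not computed. The names of both LNCKO libraries do not spell their condition, so these values depend on the sample titles being right, and lncLy6c itself was not analysed here because no gene was listed under that name.

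A ribosome of the mammalian cytosol joins a small subunit, which reads the mRNA, to a large subunit, which makes the peptide bond and passes the chain out through an exit tunnel. Nearly every ribosomal protein is needed in equal number in each particle, and their genes are among the most active in dividing cells. The mRNAs of these genes start with a C followed by an unbroken run of pyrimidines, the 5′ terminal oligopyrimidine motif, through which the kinase mTOR and the RNA-binding protein LARP1 control their translation. Levels of mRNA, which were measured here, do not report that translational control.

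The members covered almost the whole set of known proteins. All 80 standard ribosomal proteins were listed, 77 of them among the members and 3 under symbols that the rule does not take. The other 5 members were the paralog-like genes Rpl3l, Rpl39l, Rpl22l1, Rps27l and Rpl7l1. Members lay on 19 chromosomes, with 4 of them, Rps4x, Rpl10, Rpl36a and Rpl39, on the X chromosome.

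The start of the mRNA was looked up in RefSeq promoter sequences (GRCm38.p6), which held 62 of the 82 members. In 13 of these (21%), the listed start base was a C followed by an unbroken run of C and T of at least 5 bases in all, against 3.01% of the 27025 genes in the same table. Allowing the run to begin within 5 bases of the listed start, 29 members (46.8%) and 21.2% of all genes had one. The 6 windows below, 10 bases before and 20 bases from the listed start, show the run in capitals for members whose values are described further on, and for Rps10 and Rpl15, whose runs were among the longest.
Rps27 (40S; chr3:90213629-90213658, minus strand): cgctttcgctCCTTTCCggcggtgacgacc
Rps21 (40S; chr2:180257369-180257398, plus strand): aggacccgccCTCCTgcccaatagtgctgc
Rps6 (40S; chr4:86857348-86857377, minus strand): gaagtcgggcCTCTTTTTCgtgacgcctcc
Rplp2 (60S stalk; chr7:141447641-141447670, plus strand): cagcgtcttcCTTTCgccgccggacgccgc
Rps10 (40S; chr17:27635225-27635254, minus strand): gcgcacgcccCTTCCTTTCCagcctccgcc
Rpl15 (60S; chr14:18270967-18270996, minus strand): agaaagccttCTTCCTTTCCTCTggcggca

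Within 250 bases before and 50 bases from the listed start, on either strand, CCGGAAG, a sequence bound by ETS factors such as GABP, was found in 26 members (41.9%) and in 9.93% of all genes. AAGATGGC, the core bound by YY1, was found in 6 members (9.68%) and in 3.19% of all genes, and the GC box GGGCGG in 38 members (61.3%) and 38.2%. TATAAA, the TATA box core, was found in 7 members (11.3%) and in 15.7% of all genes. These are matches of letters in a window and not measured binding.

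The library totals recovered from the values in FPKM, which are fragments per 1000000 fragments and per kilobase of gene, lay between 53363944 and 65521713 fragments, and all 82 members had whole fragment numbers in all libraries. The 10 macrophage markers were all above 1 FPKM, with summed levels of 2592 FPKM in WT and 2220 in LNCKO control macrophages and of 3523 and 1497 FPKM with butyrate. Lyz2 made up most of these sums, and the other 9 markers summed to 620 and 611 FPKM in the controls and to 652 and 627 FPKM with butyrate. Markers of other cells were present too, with 10 of 10 neutrophil, 5 of 7 B cell, 3 of 6 erythroid, 2 of 6 T and NK cell and 2 of 6 stromal markers at a mean of at least 1 FPKM, and no listed marker was at 0 in all libraries. Their part in the values below was not tested, and in a bulk sample fewer cells of a type and less RNA per cell cannot be told apart. The Y-linked gene Ddx3y was at 0.0446 and 0.0320 FPKM in the WT libraries and at 4.44 and 4.58 FPKM in both LNCKO libraries, and the donors' sex and the genotype cannot be told apart.

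Ribosomal protein genes took a nearly constant portion of each library. They held 1.57% of the WT control fragments (886771) and 1.52% of those of WT butyrate (897656) and, in LNCKO, 1.62% of the control (862420) and 1.60% of the butyrate library (1050104). WT butyrate had the lowest share and LNCKO control the highest. The exact 95% Clopper-Pearson intervals were narrow, 1.513 to 1.520% in WT butyrate and 1.569 to 1.576% in WT control, but they cover counting error only and not the spread between cultures. The 60S members held 0.796, 0.774, 0.820 and 0.808% of the fragments of these libraries in the order just given, and the 40S members 0.776, 0.742, 0.796 and 0.795% in the same order.

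The deposited FPKM values divide by the whole genomic span of a gene with its introns, so levels of different genes were compared as fragments per kilobase of the main transcript per 1000000 fragments. On this scale the 80 members with a mean of at least 1 FPKM ranged from 13.2 for Rpl38 to 969 for Rps9, with a median of 144. Among the next highest were Rps15 (852), Rps14 (731) and Rplp0 (698). The lowest before Rpl38 were Rpl37 (20.3), Rpl24 (35.6) and Rps16 (36.4). The median was 224 over the 40S members and 109 over the 60S members. Rps15a (43.3) and Rps20 (45.3) also stood low, but their annotated main transcripts are unusually long, 5130 and 3706 bases, which lowers a value per kilobase.

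**Figure D1:**
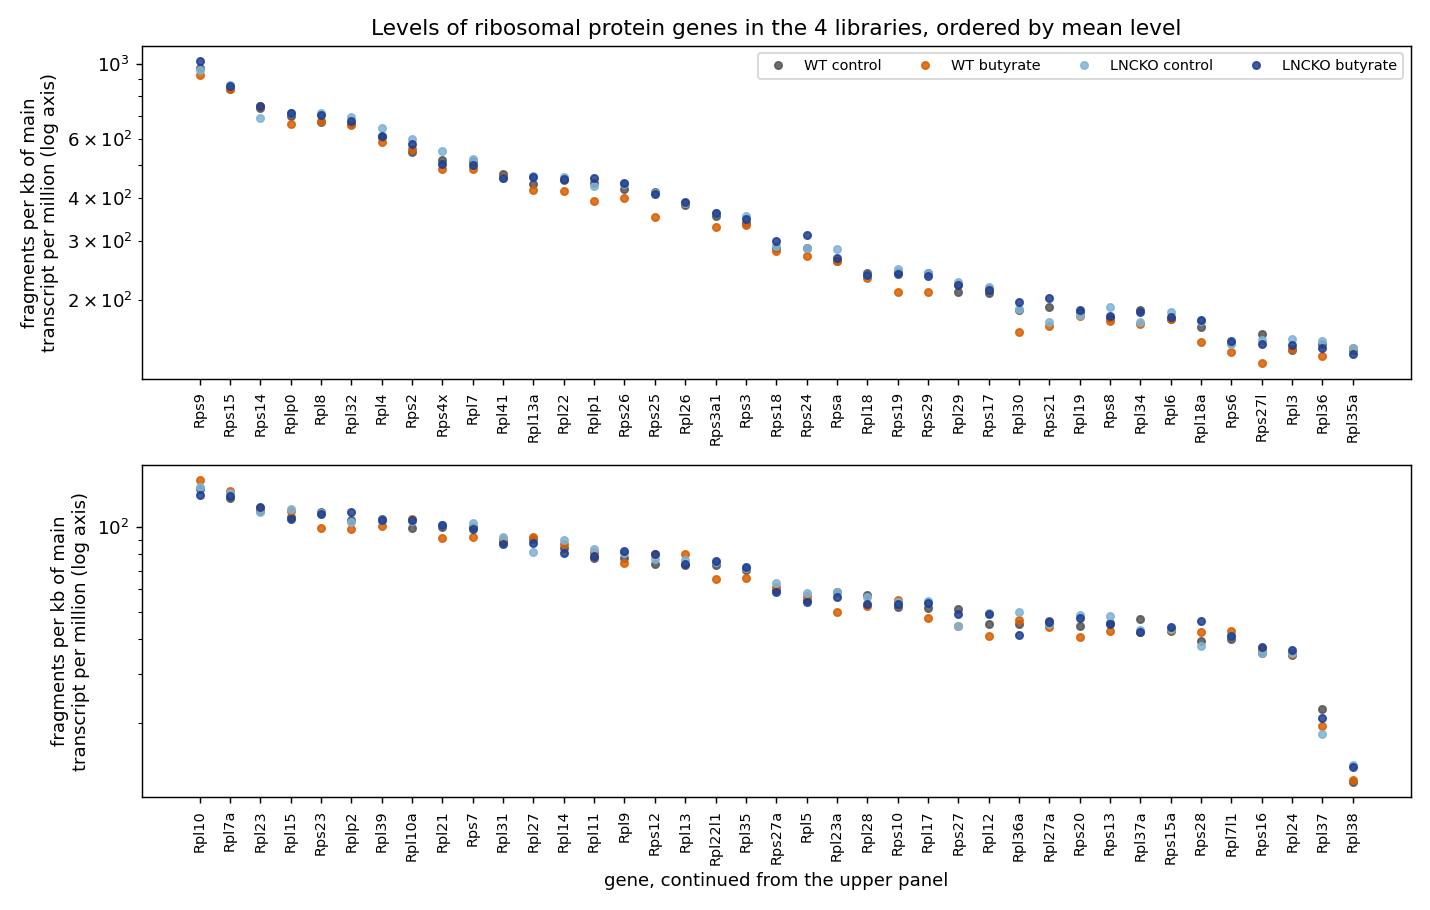
Mean-ordered levels of 78 members with a mean of at least 1 FPKM, as fragments per kilobase of main transcript per 1000000 fragments on log axes that differ between the panels. Each point is 1 library, and the 4 libraries of a gene lie close together beside the range from 13.2 (Rpl38) to 969 (Rps9) between genes.

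Levels also went with the amount of sequence that members share with other genes. Ribosomal protein genes have many processed pseudogenes, copies of the spliced mRNA elsewhere in the genome, and a read that matches several places can be lost or assigned to the wrong one. Of the 82 members, 74 shared at least one 100-base stretch of their main transcript with another annotated gene, and 34 shared at least 50% of such stretches. The most shared were Rps27 (98.4%), Rpl10 (91.6%), Rpl5 (91.1%) and Rps12 (88.9%), while 8 members shared none, among them Rpl22, Rpl32, Rpl39l, Rpl3l, Rps21, Rps27l and Rps3. The median level per kilobase was 343 in the 13 measured members with under 10% shared, 179 in the 33 with 10 to 50% and 102 in the 34 with at least 50%. Across the 80 genes of these same libraries, Spearman's rho between level and percent shared was -0.39, given as a description since genes are not independent samples. How the authors treated reads with several matches is not given in the sources used here, so levels of the much-shared members are uncertain. Exons of 11 members also overlapped those of other genes over at least 20% of their bases, up to 66.2% in Rpl35.

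**Figure D2:**
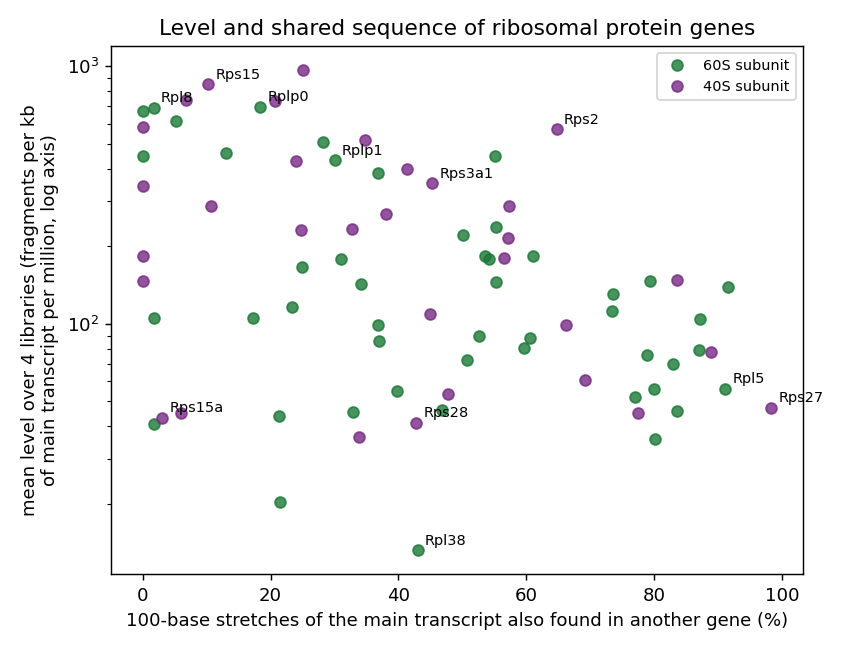
Mean level over the 4 libraries (fragments per kilobase of main transcript per 1000000 fragments, log axis) against the percent of 100-base stretches of the main transcript also found in another gene, 1 point per member with a mean of at least 1 FPKM, coloured by subunit. The median level was 343 under 10% shared and 102 at 50% or more.

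Between libraries the members differed little. In 73 of the 80 members the highest library was less than 1.2 times the lowest, against 66.3% of the 6809 genes with a mean of at least 1 FPKM. The other 7 were Rpl36a, Rpl12, Rps21, Rps27l, Rpl30, Rps28 and Rpl37, with the highest library at 1.21 to 1.23 times the lowest. The steadiest was Rpl26, at 1.02 times. WT butyrate was the lowest library of 47 members (49.8% of all genes), and LNCKO control the highest of 34 (33.4% of all genes).

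Changes are given from here on as log2 of the ratio of FPKM + 1, a scale that understates the change of low genes. The 4 FPKM values of a gene are listed first for WT (control, butyrate) and then for LNCKO (control, butyrate).

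The first comparison asked how butyrate changed the members in WT macrophages. Their median was -0.05 beside -0.04 over all genes, and 49 of 80 members were lower against 63.1% of all genes and 31 higher against 36.9%. The median turned to 0.01 when libraries were scaled by their median ratio, and all genes moved with it, to 0.00. Then 39 members were lower, beside 49.4% of all genes, and 41 higher. With values rescaled to 1000000 per library, 70 of 81 members were lower, beside 70.0% of all genes. No member was at least 1.2-fold higher (4.35% of all genes), and 1, Rps27l, was at least 1.2-fold lower (5.36% of all genes). The latter count was 0 with median-ratio scaling and 5 with rescaling, for which the share of all genes is not given here. No member passed 2-fold in either direction, where 0.264% of all genes were higher and 0.0734% lower. The 95% counting interval of the plain ratio lay below 1 for 41 members (47.1% of all genes) and above 1 for 11 (22.5%). The members varied less among themselves than all genes did, with an SD of 0.09 against 0.19.

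The 3 largest decreases in WT were those of Rps27l, Rps25 and Rpl30. Rps27l, a paralog of Rps27 that p53 induces, lies on chromosome 9 (66946086 to 66949516, GRCm38) and was at 23.1, 18.9, 22.2 and 21.6 FPKM. Its WT butyrate library was the lowest, and its change was -0.28 in WT against -0.04 in LNCKO. The plain ratio of its WT values was 0.819 with a 95% counting interval from 0.784 to 0.855. Rps25, a 40S protein that some viral mRNAs need to start translation without a cap, was at 73.0, 61.7, 72.9 and 72.0 FPKM, a change of -0.24 in WT and -0.02 in LNCKO. Rpl30, a 60S protein, was at 34.1, 29.2, 34.4 and 35.8 FPKM, a change of -0.22 in WT and 0.06 in LNCKO. In all 3, WT butyrate stood below the other libraries, which lay close together. These 3 also differ in sharing, with Rps27l sharing no stretch and Rpl30 at least 50% of its stretches.

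The 3 largest increases in WT were smaller. Rpl13, a 60S protein, was at 19.8, 21.6, 20.6 and 19.98 FPKM, with a change of 0.12 in WT and -0.04 in LNCKO. Rps12, a 40S protein, was at 17.5, 19.0, 18.2 and 19.0 FPKM, with changes of 0.11 and 0.06. Rpl10, which joins the 60S subunit late in its maturation near the peptidyl transferase centre, was at 47.3, 50.9, 47.9 and 44.7 FPKM, with changes of 0.10 and -0.10. In all 3 the WT butyrate library was the highest. In Rps12 it was nearly equal to LNCKO butyrate (19.02 and 18.99 FPKM), and both butyrate libraries lay above both controls. Rps12 and Rpl10 are among the most shared sequences named above.

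In LNCKO macrophages the members were closer to 0 with butyrate than in WT. Their median was -0.01, as it was over all genes, with 49 of 80 lower against 57.8% of all genes and 31 higher against 42.2%, and it turned to 0.00 (0.0047) with scaling by the median ratio, where 35 were lower and 45 higher. With rescaling, 61 of 81 were lower, beside 64.3% of all genes. No member was at least 1.2-fold higher (1.57% of all genes) or lower (0.867% of all genes), nor 2-fold higher (0.103%) or lower (0.0734%). The pseudocount of 1 decides this count, since the plain ratios of Rps28 (1.23) and Rpl36a (0.827) are past 1.2-fold and both pass with a pseudocount of 0.1. The counting interval of the ratio lay below 1 for 22 members (32.4% of all genes) and above 1 for 15 (21.2%). The SD over members was 0.08 against 0.12 over all genes. The largest decreases were those of Rpl36a, Rpl14 and Rps4x, and the largest increases those of Rps21, Rps28 and Rpl37. Rpl36a, an X-linked 60S gene (chromosome X, 134585654 to 134588062), was at 9.06, 9.33, 10.02 and 8.29 FPKM, with a change of -0.25 in LNCKO and 0.04 in WT. It shared 83.6% of its 100-base stretches with other genes. Rpl14, of the 60S subunit, was at 26.4, 27.5, 28.2 and 25.5 FPKM, with changes of -0.14 in LNCKO and 0.05 in WT. Rps28, a small 40S protein, was at 2.71, 2.92, 2.60 and 3.19 FPKM, with changes of 0.22 in LNCKO and 0.08 in WT, both butyrate libraries being above both controls.

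Both genotypes were then set side by side. Of the 80 members, 29 were lower with butyrate in both genotypes (38.8% of all genes), 11 were higher in both (17.9%) and 40 went in opposite directions (43.3%), 20 each way. The WT change less the LNCKO change had a median of -0.05 over members and -0.03 over all genes, and these were -0.01 and 0.00 (0.0018) with median-ratio scaling. The lowest differences were those of Rps21 (-0.42), Rpl37 (-0.34) and Rps27 (-0.32), and the highest those of Rpl36a (0.29), Rpl10 (0.20) and Rpl14 (0.20). These differences rest on 4 single libraries and were not tested.

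Rps21, a small 40S protein (chromosome 2, 180257377 to 180258445), was at 70.2, 61.8, 63.3 and 74.8 FPKM. Butyrate went with a change of -0.18 in WT and 0.24 in LNCKO, with plain ratios of 0.880 (95% counting interval 0.843 to 0.920) and 1.18 (1.131 to 1.232). Rps27, a 40S protein with a zinc finger (chromosome 3, 90212522 to 90213651), was at 15.6, 13.5, 13.6 and 15.0 FPKM, with changes of -0.19 and 0.13. Rpl37, a 60S protein with a zinc finger (chromosome 15, 5116645 to 5119140), was at 7.52, 6.54, 6.11 and 6.95 FPKM, with changes of -0.18 and 0.16. In all 3 the WT control and LNCKO butyrate libraries were the higher pair. Of these, Rps21 shared no 100-base stretch with another gene, Rpl37 21.5% and Rps27 98.4%. The start windows of Rps21 and Rps27 shown above carry the pyrimidine run, but the listed start of Rpl37 has none. Rpl14, with a difference of 0.20 in the other direction, has such a run. The median difference was -0.04 over the 13 members with a run and -0.04 over the 47 measured members with a listed start and none.

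**Figure D3:**
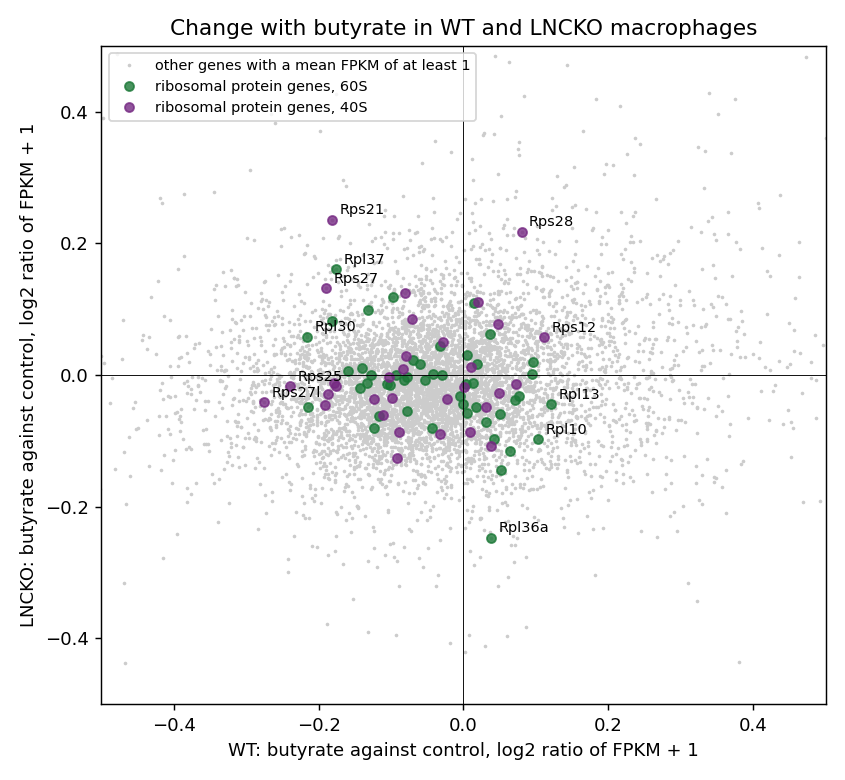
Change with butyrate in WT (horizontal) and LNCKO macrophages (vertical), both as log2 ratios of FPKM + 1, for members of the 60S (green) and 40S subunit (purple) and other genes (grey), with 145 other genes beyond the axes. The members sit around 0, with Rps21, Rpl37 and Rps27 at the upper left and Rpl36a lowest.

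**Figure D4:**
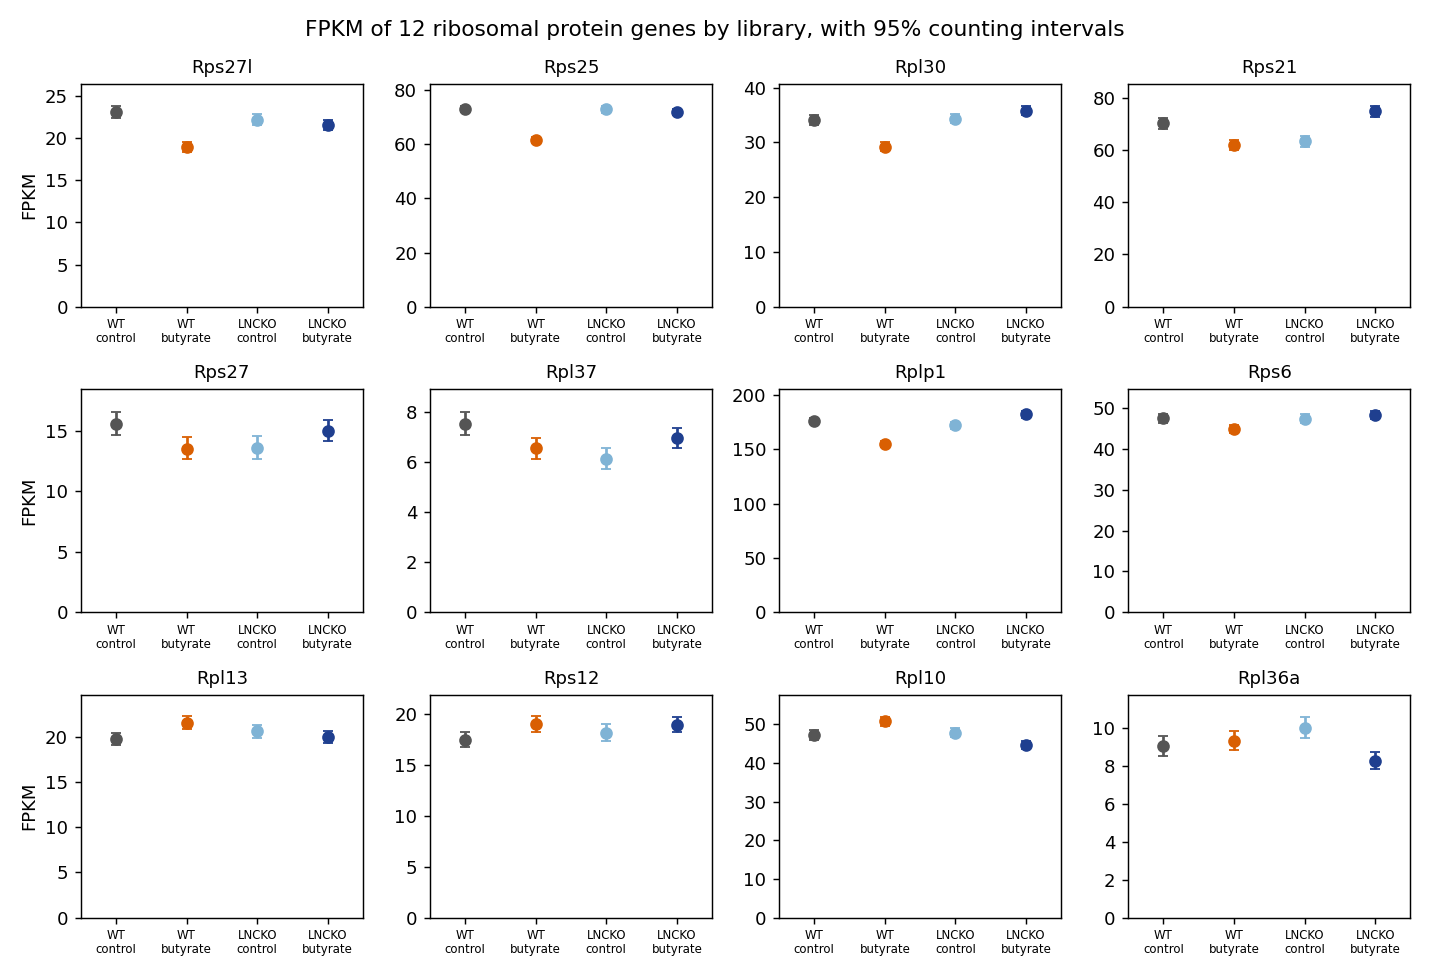
FPKM of 12 members in each library (points) with 95% intervals that cover counting error only, on axes that start at 0. In Rps27l, Rps25 and Rpl30 the WT butyrate library is the lowest, whereas in Rpl36a the LNCKO butyrate library is.

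Without butyrate, LNCKO and WT macrophages differed by a median of 0.03 over members and 0.01 over all genes. Of the 80 members, 53 were higher in LNCKO against 56.7% of all genes. With median-ratio scaling 49 of 80 were higher and 31 lower, beside 50.1% of all genes lower. With rescaling 61 of 81 were higher and 20 lower, beside 40.4% of all genes lower. No member was at least 1.2-fold higher (2.14% of all genes) or lower (1.64%) in LNCKO, nor 2-fold higher (0.191%) or lower (0.0881%), though the plain ratio of Rpl37 was 0.813 and it passes 1.2-fold with a pseudocount of 0.1 or with either other scaling. The lowest differences were those of Rpl37 (-0.26), Rps27 (-0.18) and Rpl27 (-0.15), and the highest those of Rpl36a, Rps20 and Rps2. Rpl27, of the 60S subunit, was at 17.3, 17.5, 15.5 and 16.7 FPKM, with LNCKO control the lowest library. Rps20, of the 40S head, was at 38.0, 34.8, 41.6 and 40.6 FPKM, with a difference of 0.13. Rps2, at the mRNA entry of the 40S subunit, was at 143, 147, 156 and 151 FPKM, with a difference of 0.12, and shared 64.7% of its stretches, with 36 pseudogenes among the genes sharing them.

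With butyrate, the median difference of LNCKO from WT was 0.06 over members and 0.04 over all genes, and 60 of 80 members were higher in LNCKO against 64.2% of all genes. It was 0.00 for both (0.0042 over members) with median-ratio scaling, where 41 of 80 were higher and 39 lower, beside 49.6% of all genes lower. With rescaling 68 of 81 were higher and 13 lower, beside 31.4% of all genes lower. At least 1.2-fold higher were 2 members, Rpl30 (0.28) and Rps21 (0.27), beside 6.18% of all genes, and 0 were lower, beside 4.17%. The members at least 1.2-fold higher were 0 with median-ratio scaling and 6 with rescaling, for which the share of all genes is not given here. No member was 2-fold higher (0.22% of all genes) or lower (0.25%). The next highest was Rpl12 (0.24), and the lowest were Rpl10 (-0.18), Rpl36a (-0.15) and Rpl13 (-0.11). The comparisons between the genotypes use the same 4 libraries as the butyrate comparisons above and are no separate evidence.

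By subunit, the WT butyrate change had a median of -0.08 over the 32 members of the 40S subunit, 21 of which were lower, and of -0.04 over the 48 of the 60S subunit, 28 of which were lower, beside 63.1% of all genes. With median-ratio scaling these were -0.02 and 0.02. In LNCKO the medians were -0.02 and -0.01, with 20 of 32 and 29 of 48 lower, beside 57.8% of all genes.

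The ribosomal stalk, which calls GTP-binding factors to the ribosome, is formed by Rplp0, Rplp1 and Rplp2 on a base with Rpl12. All 4 genes were lower with butyrate in WT, with a median of -0.12, beside 63.1% of all genes that were lower. All 4 were lower under both other scalings too, with a median of -0.06 with median-ratio scaling and -0.18 with rescaling. Of all genes, 49.4% and 70.0% were lower under these scalings. Rplp1 was at 176, 155, 172 and 182 FPKM, with a change of -0.18 in WT and 0.08 in LNCKO. Rplp2 was at 24.2, 22.6, 23.9 and 26.0 FPKM, with changes of -0.10 and 0.12. Rplp0, often used as a reference gene in qRT-PCR, was at 223, 211, 228 and 227 FPKM, with changes of -0.08 and 0.00 (-0.0036). Rpl12 was at 14.8, 13.4, 16.2 and 16.1 FPKM, with changes of -0.13 and -0.01. WT butyrate was the lowest library for each of the 4, and their median change in LNCKO was 0.04, with 2 of 4 lower and, with median-ratio scaling, 0 of 4.

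Rpl5 and Rpl11 form the 5S ribonucleoprotein particle with 5S rRNA, which can also bind and hold back the p53 regulator Mdm2. Rpl5 was at 13.2, 13.6, 14.1 and 13.1 FPKM, with changes of 0.04 in WT and -0.10 in LNCKO. Rpl11 was at 2.57, 2.70, 2.77 and 2.62 FPKM, with changes of 0.05 and -0.06. Both were higher in WT (36.9% of all genes) and lower in LNCKO (57.8%). With values rescaled to 1000000 per library, however, only 1 of the 2 was higher in WT, beside 70.0% of all genes that were lower. LNCKO control was the highest library for both (33.4% of all genes).

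Some ribosomal proteins have further roles in signalling. Rps6, the substrate of the S6 kinases downstream of mTOR, was at 47.5, 44.9, 47.4 and 48.4 FPKM, with changes of -0.08 in WT and 0.03 in LNCKO. Rpl13a, which leaves the ribosome in interferon-treated myeloid cells to silence inflammatory mRNAs, was at 144, 139, 152 and 151 FPKM, with changes of -0.05 and -0.01. Rps3, which also acts with NF-κB, was at 110, 109, 116 and 113 FPKM, with changes of -0.02 and -0.04. Rps27a, which is made as a fusion with ubiquitin, was at 16.8, 17.3, 17.8 and 16.5 FPKM, with changes of 0.04 and -0.11. The median of the 4 was -0.04 in WT, and 0.02 with median-ratio scaling.

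On the X chromosome, Rps4x was at 114, 107, 121 and 111 FPKM and Rpl39, a protein of the exit tunnel, at 22.8, 21.5, 22.6 and 22.5 FPKM. In LNCKO the 4 X-linked members, with Rpl10 and Rpl36a, were all lower with butyrate. So were 49 of the 80 members and 57.8% of all genes. The median of the 4 was -0.11, with values from -0.25 (Rpl36a) to -0.01 (Rpl39). With median-ratio scaling 3 of the 4 were lower, beside 35 of the 80 members. In WT the 4 were split, with 2 lower and 2 higher, beside 63.1% of all genes that were lower.

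The remaining groups moved in both directions. Over all genes, 63.1% were lower with butyrate in WT and 57.8% in LNCKO. Of 8 proteins that line the exit tunnel, 6 were lower with butyrate in WT (median -0.06, from -0.21 for Rpl23a to 0.03 for Rpl31) and 5 in LNCKO (median -0.01). Of 8 proteins around the mRNA channel and the decoding site, 4 were lower in WT (median -0.01, from -0.18 for Rps23 to 0.05 for Rps16) and 5 in LNCKO (median -0.02, with Rps14 at 0.11). Of 18 genes mutated in Diamond-Blackfan anemia, an inherited failure of red cell production, 8 were lower in WT (median 0.02, from -0.19 for Rps19 to 0.08 for Rps28) and 10 in LNCKO (median -0.02). The 13 members with a pyrimidine run at the listed start had a median of -0.03 in WT, beside -0.04 for the 47 measured members with a listed start and no such run.

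The WT change, in which 63.1% of all genes were lower, was also set against the sharing of sequence. The median was -0.08 in the 13 members with under 10% shared, of which 10 were lower, -0.08 in the 33 with 10 to 50%, of which 22 were lower, and 0.00 (0.0016) in the 34 with at least 50%, of which 17 were lower. Median-ratio scaling moved these medians to -0.03, -0.02 and 0.05. Over the 46 members with under 50% shared, the median was -0.08 in WT and -0.01 in LNCKO, beside -0.04 and -0.01 over all genes. In LNCKO butyrate against WT butyrate, 40 of the 46 were higher and 6 lower, beside 35.8% of all genes lower. This cut was chosen after seeing the data, and the difference was not tested.

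The paralog-like genes differed widely in level. Rpl22l1, the paralog of Rpl22, was at 20.4, 18.1, 20.95 and 21.06 FPKM, with changes of -0.16 in WT and 0.01 in LNCKO. Rpl7l1, which resembles Rpl7, was at 11.8, 12.7, 12.1 and 12.1 FPKM, with changes of 0.09 and 0.00 (0.0014). The 2 members under the filter of 1 FPKM were Rpl3l, the paralog of Rpl3 in skeletal and heart muscle, and Rpl39l, the paralog of Rpl39 best known from the testis. Rpl39l had 46, 33, 25 and 24 fragments and Rpl3l had 32, 70, 14 and 53. In Rpl3l both butyrate libraries were above both controls, and its plain ratio of FPKM was 2.08 in WT (95% counting interval 1.35 to 3.27) and 3.08 in LNCKO (1.69 to 6.02). Among 5841 genes under the filter with at least 10 fragments in every library, 5.08% were at least 2-fold higher in WT, 3.49% in LNCKO and 0.548% in both. Rpl3l was at 0.0682, 0.142, 0.0315 and 0.0972 FPKM, far under the filter. Just above the filter was Rpl38, with a mean of 1.26 FPKM, followed by Rpl11 at 2.66 FPKM and Rps28 at 2.86 FPKM.

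The genes that assemble ribosomes and those that work with them were described beside the members. Of 30 listed factors of ribosome assembly and rRNA synthesis, 26 passed the filter, and with butyrate in WT 22 of these were higher (36.9% of all genes), with a median of 0.20, against -0.05 for the ribosomal proteins and -0.04 for all genes. At least 1.2-fold higher were 7 of them (4.35% of all genes). The highest was Nolc1, a chaperone of small nucleolar ribonucleoproteins, at 5.83, 8.35, 6.48 and 6.12 FPKM with a change of 0.45, and the lowest was Pes1, of the PeBoW complex, at -0.12. In LNCKO, 19 of the 26 were lower (57.8% of all genes), with a median of -0.04, from -0.19 for Nop16 to 0.17 for Gar1. The WT median was 0.24 with median-ratio scaling and 0.17 with values rescaled to 1000000.

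A list of 14 genes whose mRNAs are known for the same translational control was also read. Most are translation factors, with the histone chaperone Nap1l1, the RNA-binding protein Hnrnpa1 and Tpt1, and their start sequences were not examined here. Their median was 0.01 in WT, from -0.19 for Eef1a1 to 0.09 for Eef1g. In LNCKO it was -0.07, and 12 of 14 were lower against 57.8% of all genes. In WT their median was -0.04 with values rescaled to 1000000. The 67 measured proteins of the mitochondrial ribosome, which share no subunit with the cytosolic one, had medians of 0.02 in WT (-0.02 after rescaling) and -0.02 in LNCKO, and held 0.208, 0.210, 0.212 and 0.209% of the fragments. Among 11 measured genes of mTOR signalling and its targets, with Myc, the median was -0.03 in WT, from -0.16 for Eif4ebp1 to 0.84 for Myc. Myc, a transcription factor that drives genes of ribosome assembly, was at 8.28, 15.6, 11.2 and 10.4 FPKM, with WT butyrate the highest library and a change of -0.09 in LNCKO. Fau, Rack1 and Rpl36al, ribosomal genes outside the symbol rule, had changes of -0.09, 0.04 and -0.01 in WT.

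**Figure D5:**
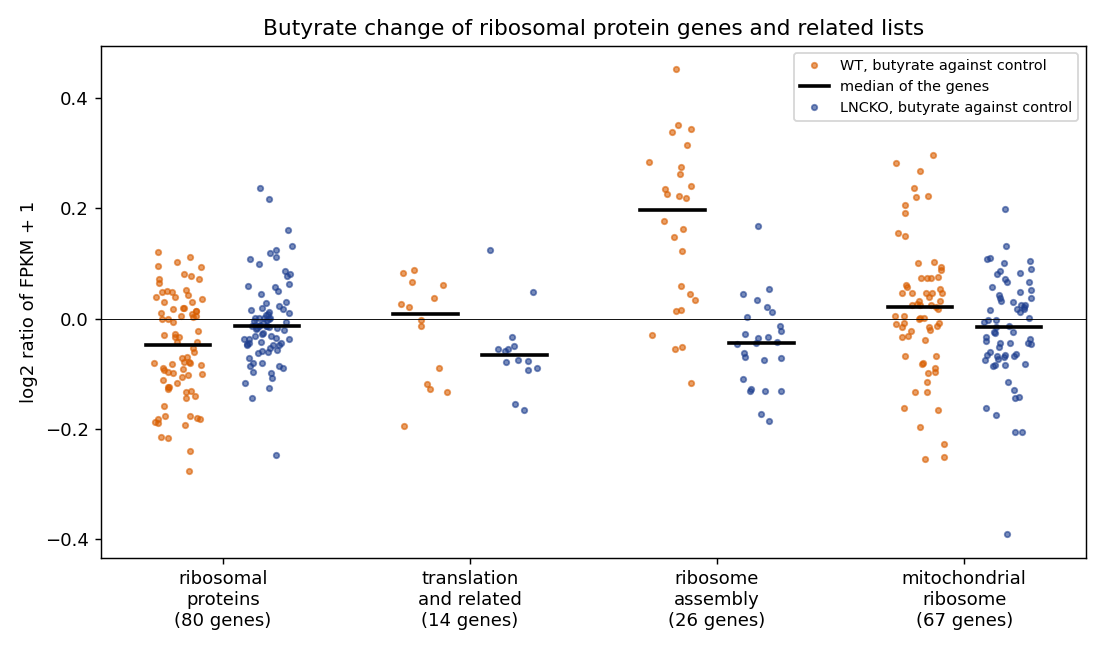
Change with butyrate (log2 ratio of FPKM + 1) of each gene with a mean of at least 1 FPKM in 4 lists, in WT (orange) and LNCKO (blue), with medians as black lines. The ribosome assembly genes have a WT median of 0.20 and the ribosomal protein genes of -0.05, which turned to 0.01 with libraries scaled by their median ratio.

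Markers of other cells moved with some of these comparisons. With butyrate in WT, the 5 measured B cell markers were all lower (63.1% of all genes), with a median of -0.39. Their summed level was 209, 164, 213 and 216 FPKM in the 4 libraries. WT butyrate was the lowest library, as it was for 47 of the 80 members and 49.8% of all genes. The erythroid markers summed to 5.93 and 6.64 FPKM in the WT libraries and to 22.6 and 64.6 FPKM in the LNCKO libraries, higher with butyrate. The neutrophil markers summed to 2668, 3086, 2327 and 2240 FPKM, but went in both directions with butyrate in WT, 7 higher and 3 lower, from -0.44 for Camp to 1.05 for Ly6g. The T and NK cell markers summed to 14.9, 19.3, 18.1 and 17.4 FPKM and the stromal markers to 10.1, 8.66, 2.85 and 5.77 FPKM. Nkg7 made up most of the T and NK cell sums. The other 4 listed markers summed to 4.38, 3.65, 4.86 and 5.55 FPKM, with WT butyrate the lowest library. The part of these cells in the members' values was not tested.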

How the data were processed

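RNA of BMDMs was measured in 4 libraries, 1 per group. The methods name TRIzol and an MGISEQ-2000 (100-bp reads, paired-end), the labels RNeasy, TruSeq and Illumina, and the files do not settle which was used. The submitters' processing notes name STAR 2.5.0c, Picard 1.126, bedtools 2.17.0, HTSeq 0.6.0 and DESeq2 3.0. The authors deposited values in FPKM, with the gene span as length, on GRCm38, and no counts.

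Fragments were recovered as FPKM times the gene span of GENCODE M21 times the library total, the total being the number that made most values whole within 0.02. Of 16342 matched genes, 98.5% were whole in all 4 libraries with the genomic span as length and 6.99% with the exon length. Intervals are exact (Clopper-Pearson, 95%) and, without molecular identifiers, cover counting error only.

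Changes are log2 ratios of FPKM + 1 over genes whose mean was at least 1 FPKM, and counts used folds of 1.2 and 2. The members and lists were chosen with earlier results of these data known. Values in all libraries were given for the 3 largest rises and falls in each comparison, for the stalk, 5S, signalling, paralog-like and X-linked members and for those next to the filter. Members of other lists are given by count, median and extremes. Shared sequence was the percent of 100-base stretches of the main transcript found on either strand in transcripts of another GENCODE gene. The steps were tested on simulated data. Alternatives were a pseudocount of 0.1, a filter of 5 FPKM or none, scaling by the median ratio, values rescaled to 1000000, fragments per 1000000, the members without the paralog-like genes and, chosen after seeing the data, members with under 50% shared. Computations ran in Python 3.11.15 (numpy 2.4.6, pandas 2.3.3, scipy 1.17.1), and matplotlib 3.10.9 drew the figures. With 1 library per group no test was run. Values of some single genes are not reported here.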

Additional observations from a re-analysis of the deposited data

Results flagged for a closer look

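In 3 members butyrate went with opposite changes of at least 0.1 on the log2 scale in WT and LNCKO macrophages. The WT change less the LNCKO change was -0.42 for Rps21, -0.34 for Rpl37 and -0.32 for Rps27. With 1 library per group these differences were not tested. The same pattern in either order was seen in 3.75% of the 80 members and in 4.48% of all 6809 genes.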

How the results depend on the processing

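No paired analysis was possible because each group has 1 library, and no replicate was left out for the same reason. No change of at least 0.1 in size turned to one of at least 0.1 in the other direction. Of 2396 values of single members under the alternatives, 2154 moved by at most 0.05 and 242 moved by more, 151 with median-ratio scaling and 86 with values rescaled to 1000000. With median-ratio scaling, direction turned for 10 members with butyrate in WT, 14 with butyrate in LNCKO, 4 between the controls and 19 between the butyrate groups, and with rescaling for 20, 11, 8 and 8. The share of all genes that turned is not given here, so these counts have no background. All genes shifted too: the share lower with butyrate in WT went from 63.1% to 49.4% with median-ratio scaling and 70.0% with rescaling.

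With median-ratio scaling, the median of the members was 0.01 (0.0091) in WT and 0.00 (0.0042) for LNCKO butyrate against WT butyrate, 0 members were 1.2-fold lower in WT, 1 (Rpl37) was lower in LNCKO control than in WT control and 0 were higher in LNCKO butyrate than in WT butyrate. With values rescaled to 1000000, the WT median was -0.11, beside -0.10 for all genes, 5 members were 1.2-fold lower in WT (Rps25, Rps27l, Rpl39l, Rpl23a and Rpl30) and 1 in LNCKO (Rpl36a), 2 were lower in LNCKO control than in WT control (Rpl39l and Rpl37), and for LNCKO butyrate against WT butyrate 6 were higher and 1 (Rpl39l) was lower. A pseudocount of 0.1 gave 1 member higher (Rps28) and 1 lower (Rpl36a) with butyrate in LNCKO and 1 lower (Rpl37) in LNCKO control than in WT control. Fragments per 1000000 gave 1 higher with butyrate in LNCKO (Rps28) and 1 lower in LNCKO control (Rpl37). Without the paralog-like genes 0 members were 1.2-fold lower in WT, and with under 50% shared 1 (Rps21) was higher in LNCKO butyrate than in WT butyrate. The share of all genes past 1.2-fold is given only for the values as first reported. Counts under median-ratio scaling, rescaling, a pseudocount of 0.1 or fragments per 1000000 therefore have no background beside them. Listed for WT (control, butyrate) and then LNCKO (control, butyrate), the members' share of the library was 1.55, 1.495, 1.59 and 1.58% without the paralog-like genes and 5.05, 4.66, 5.20 and 5.09% of summed FPKM. The median WT change of members less that of all genes stayed between -0.05 and 0.01 in all settings. This difference was -0.006 as first reported, 0.008 with median-ratio scaling and -0.008 with rescaling. Without a filter it was -0.047, and with under 50% shared -0.039. The members' own median moved more with scaling, from -0.11 with rescaling to 0.01 with median-ratio scaling. A spread between cultures is not known, and no difference was tested.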
